A study of Mus musculus with 6 samples.

Results

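Glutamate transporters fall into a plasma membrane class and a vesicular class, and 7 of their genes were followed in cultured cerebellar granule cells (GCs) after knockdown (KD) of the m6A reader YTHDF2. The 4 plasma membrane genes were Slc1a1, Slc1a2, Slc1a3 and Slc1a6, and the 3 vesicular genes were Slc17a6, Slc17a7 and Slc17a8. They are 7 of the 53421 genes in the table of counts. They were chosen by their family and by a contrast already seen between the groups, in which Slc1a2 was lower after KD and Slc1a3 was not. The differences of these 7 genes between the groups are therefore given as a description, without a test.

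The plasma membrane transporters, or excitatory amino acid transporters (EAATs), take glutamate up from the extracellular space with the sodium gradient and so end its action at synapses. GLT-1 (EAAT2, from Slc1a2) and GLAST (EAAT1, from Slc1a3) are best known from astrocytes, and in the cerebellum GLAST is the main transporter of Bergmann glia. EAAC1 (EAAT3, from Slc1a1) is a neuronal transporter, and EAAT4 (from Slc1a6) is known from Purkinje cells. The vesicular transporters load glutamate into synaptic vesicles. GCs are the glutamatergic neurons of the cerebellar cortex, and they use VGLUT2 (from Slc17a6) early and VGLUT1 (from Slc17a7) as they mature, while VGLUT3 (from Slc17a8) belongs to small sets of neurons elsewhere.

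RNA-seq was done on 3 libraries with a hairpin against Ythdf2 (shYthdf2) and 3 with a control hairpin (shCtrl), all of GCs from cerebella of C57BL/6 pups, given as postnatal day 8 in the labels. All cultures of both groups were infected with lentivirus and, by the methods of the study, selected with puromycin. Both groups are whole cultures, with 1 hairpin each by the library names. The methods call the 3 libraries of a group biological replicates without saying which cultures or pups they came from, so that p-values measure the spread between these libraries, which may be partly technical. The libraries are numbered 1, 2 and 4 in each group.

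The groups were taken from the library names, since the sample titles and genotype fields give them the other way round, and every direction below would be turned if the titles were right. The libraries held 17246821 to 21546595 counts. In the libraries named shYthdf2, Ythdf2 had 501, 402 and 501 normalized counts in replicates 1, 2 and 4, against 618, 841 and 628 in shCtrl. The groups did not overlap, but the log2 fold change of -0.57 (SE 0.16) had an adjusted p-value of 0.125 in edgeR's quasi-likelihood test. The mean after KD was 67.3% of that in shCtrl. Between libraries of the same number the log2 difference of Ythdf2 was -0.30, -1.06 and -0.33 for replicates 1, 2 and 4, largest in replicate 2. Replicate 2 stood apart from replicates 1 and 4 in both groups, by over 0.5 on the log2 scale in 30.2% of the genes tested in shYthdf2 and 37.8% in shCtrl. The values of the transporters are therefore given for each replicate.

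The members of each class are paralogs, so the sequences most alike between them are shown first, to make clear what separates their reads. These are the most similar ungapped 60-base windows of the coding sequences that lie within 1 exon in both genes, from the GENCODE transcripts on GRCm38, written 5′ to 3′ on the coding strand with the differing bases in capitals. The window of Slc1a2 lies in exon 8 of 11 of its transcript (chr2:102761106-102761165, plus strand), and that of Slc1a3 in exon 8 of 10 (chr15:8642226-8642285, minus strand).
Slc1a2: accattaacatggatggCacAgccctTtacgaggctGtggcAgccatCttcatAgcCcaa
Slc1a3: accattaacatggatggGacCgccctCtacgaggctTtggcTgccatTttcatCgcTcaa
The windows of this pair differ at 8 of 60 bases. The windows of the vesicular pair lie in exon 2 of 12 of Slc17a6 (chr7:51625450-51625509, plus strand) and exon 2 of 13 of Slc17a7 (chr7:45168884-45168943, plus strand) and differ at 5 of 60 bases.
Slc17a6: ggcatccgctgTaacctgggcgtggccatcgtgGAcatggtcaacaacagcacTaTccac
Slc17a7: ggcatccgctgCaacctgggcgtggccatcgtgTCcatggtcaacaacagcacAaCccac
No stretch of 50 bases in the transcripts of any of the 7 genes was found in another of the 7. Stretches of 50 bases also present in transcripts of other genes made up 31.0% of those of Slc1a1, which overlaps 4430402I18Rik on the opposite strand. They made up at most 1.31% in the other members and 0 in Slc1a6, Slc17a6 and Slc17a7. The overlapping gene 4430402I18Rik had 15 to 32 counts in the libraries and Slc1a1 at least 323. Since the use of strand in counting is not given in the sources used here, reads of these 2 genes cannot be told apart in their shared part, and the level of Slc1a1 is uncertain to that extent.

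Slc1a2 (chromosome 2, 102658659 to 102790784, plus strand) had the largest difference between the groups among the 7 genes. It had 934, 1022 and 878 normalized counts in shYthdf2 replicates 1, 2 and 4. In shCtrl it had 3032, 1575 and 3080. All 3 shYthdf2 libraries were below all 3 shCtrl libraries, and shCtrl replicate 2 lay between the KD libraries and the other shCtrl libraries. The mean was 944 ± 72.7 (SD, n = 3) after KD and 2562 ± 855 (SD, n = 3) in shCtrl, so that 36.9% of the shCtrl level was left, with a log2 fold change of -1.44 (SE 0.25). Between libraries of the same number the log2 difference was -1.70, -0.62 and -1.81 for replicates 1, 2 and 4. In bulk RNA of a culture, fewer cells of a type and less RNA per cell cannot be told apart, and this holds for every member.

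Slc1a3 (chromosome 15, 8634124 to 8710764, minus strand), the other glial transporter gene, did not have this pattern. It had 1541, 1908 and 1555 normalized counts in shYthdf2. The shCtrl libraries had 908, 1918 and 973. The groups overlapped because shCtrl replicate 2 was the highest of all 6 libraries, while replicates 1 and 4 of shCtrl were the lowest. The means were 1668 ± 208 and 1267 ± 565 (SD, n = 3 each), a log2 fold change of 0.40 (SE 0.28). The same-number differences were 0.76, -0.01 and 0.68 on the log2 scale, so that replicate 2 alone had almost no difference. The log2 fold change of Slc1a3 was 0.83 without shCtrl replicate 2, and that of Slc1a2 was -1.69.

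Slc1a1 (chromosome 19, 28835049 to 28913960, plus strand) had 413, 331 and 465 normalized counts in shYthdf2. In shCtrl it had 348, 531 and 355. Replicate 2 was the lowest library after KD and the highest in shCtrl, and its difference of -0.68 ran against those of replicates 1 and 4, at 0.25 and 0.39. The log2 fold change was -0.03 (SE 0.21).

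Slc1a6 (chromosome 10, 78780496 to 78814765, plus strand) was low, with 42.9, 87.3 and 53.1 normalized counts in shYthdf2. The values in shCtrl were 64.8, 97.8 and 68.1. The groups overlapped, with replicate 2 the highest library of each. The KD library was lower than the shCtrl library in all 3 numbers, by -0.59, -0.16 and -0.36 on the log2 scale, and the log2 fold change was -0.33 (SE 0.33).

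Among the vesicular transporters, Slc17a6 (chromosome 7, 51622006 to 51671119, plus strand) had 5518, 5470 and 5363 normalized counts in shYthdf2. In shCtrl it had 3736, 5107 and 3782. The lowest KD library was above the highest shCtrl library, though only by a small step to shCtrl replicate 2. The means were 5450 ± 79.2 and 4209 ± 778 (SD, n = 3 each), 130% of shCtrl, with a log2 fold change of 0.37 (SE 0.14) and same-number differences of 0.56, 0.10 and 0.50.

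Slc17a7 (chromosome 7, 45163949 to 45176142, plus strand) varied with the replicate number and hardly with the group. It had 5715, 9745 and 5962 normalized counts in shYthdf2. The same libraries of shCtrl had 5674, 9562 and 5393. Replicate 2 was above the mean of the other two libraries by 0.74 on the log2 scale after KD and by 0.79 in shCtrl. The log2 fold change between the groups was 0.05 (SE 0.28), and the same-number differences were 0.01, 0.03 and 0.14.

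Slc17a8 (chromosome 10, 89574020 to 89621253, minus strand) had only 4, 5 and 9 raw counts in shYthdf2 and 7, 6 and 3 in shCtrl. It did not pass the filter on low counts, and a difference between the groups was not detectable at this depth.

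**Figure D1:**
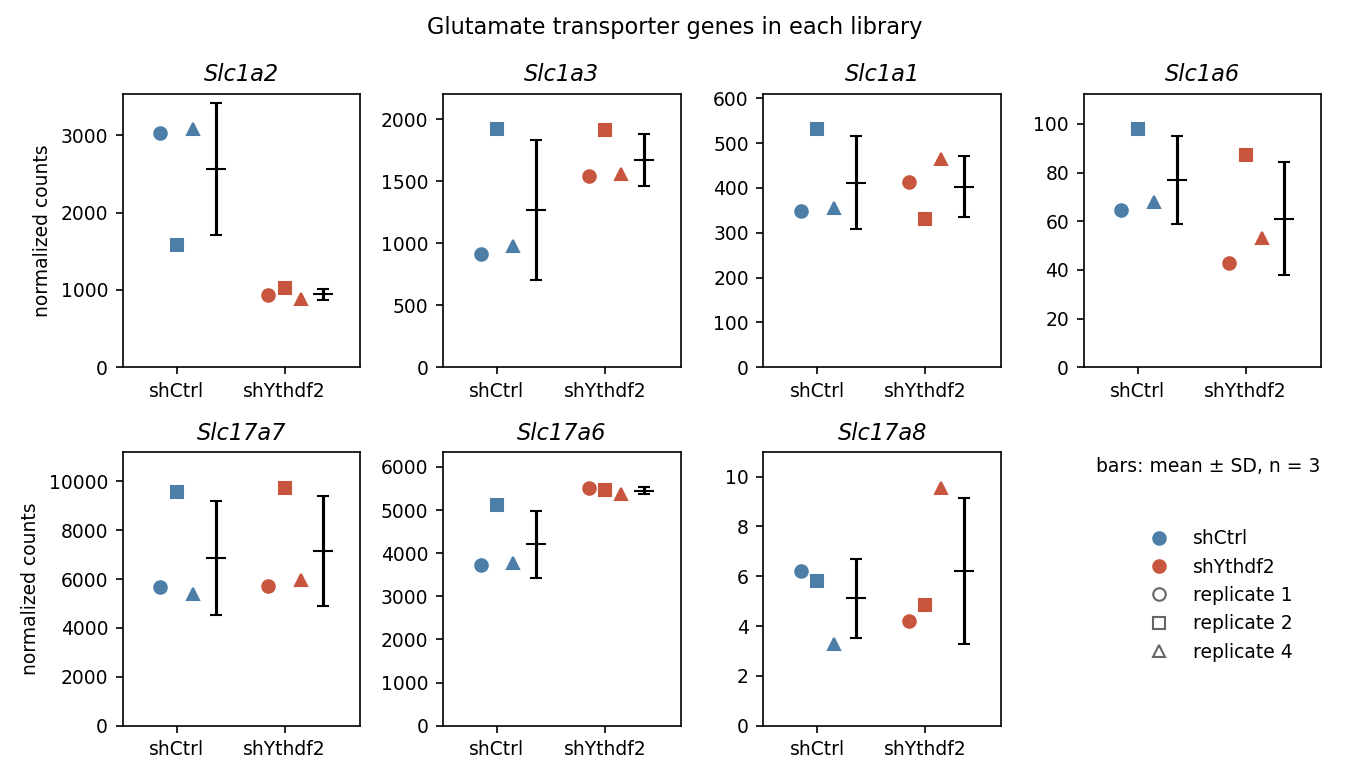
Normalized counts (TMM, y axis from 0, one panel per gene) of the 7 glutamate transporter genes in the 3 shCtrl and 3 shYthdf2 libraries; symbols give the replicate number and bars the mean ± SD. Slc1a2 lies at 878 to 1022 after KD and 1575 to 3080 in shCtrl, and in Slc17a7 the replicate 2 libraries of both groups, at 9745 and 9562, lie above the rest.

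Of the 7 genes, 6 passed the filter, 3 with a higher and 3 with a lower mean after KD, and their median log2 fold change was 0.01, as was that of all genes tested. The groups did not overlap in 2 of the 6, Slc1a2 below and Slc17a6 above. Among all 17214 genes tested, groups did not overlap in 26.0%, with 13.4% lower and 12.6% higher after KD. Since the contrast itself chose the genes, nothing is read from this count. The sign was the same in all 3 replicate numbers for 4 genes, Slc1a2, Slc1a6, Slc17a6 and Slc17a7. In each of these 4 except Slc17a7 the difference was smallest in replicate 2.

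**Figure D2:**
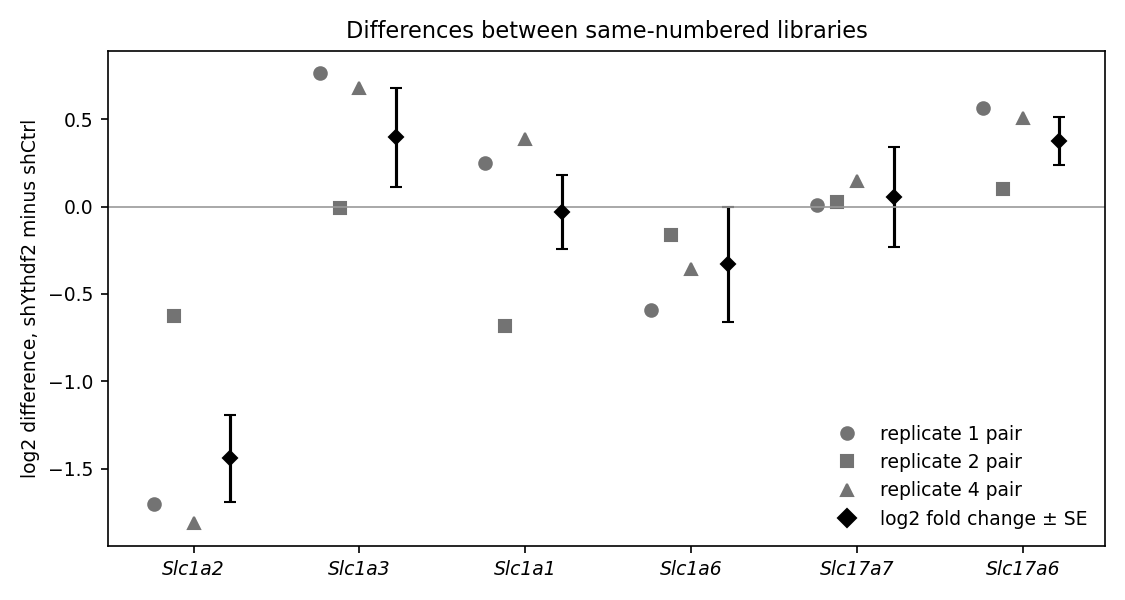
Difference in log2 normalized counts, shYthdf2 minus shCtrl (y axis), between the libraries of replicate 1, 2 and 4 (grey symbols) for the 6 genes tested, beside the fitted log2 fold change ± SE (black). For Slc1a2 the differences are -1.70, -0.62 and -1.81, and for Slc1a3 they are 0.76, -0.01 and 0.68.

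Levels were compared between the genes as normalized counts per kilobase of merged exons. In shCtrl the vesicular genes Slc17a7, at 1275 ± 432 (SD, n = 3), and Slc17a6, at 779 ± 144, led the order. They stood at percentiles 96.5 and 92.9 among the genes tested. The glial pair followed, with 195 ± 65.1 for Slc1a2 and 148 ± 66.2 for Slc1a3. Slc1a1 had 49.8 ± 12.6, Slc1a6 had 35.7 ± 8.46 and Slc17a8 had 1.08 ± 0.33. The ranges over the 3 libraries overlapped between Slc1a2 and Slc1a3 and between Slc1a1 and Slc1a6, and these neighbours were not separate beyond their spread. The other 4 neighbouring pairs were separate.

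After KD the order was the same but for the glial pair. Slc1a3 had 195 ± 24.4 normalized counts per kilobase and Slc1a2 had 71.9 ± 5.53 (SD, n = 3 each), and the ranges did not overlap. The ratio of Slc1a2 to Slc1a3 per kilobase was 0.394, 0.348 and 0.367 in shYthdf2 replicates 1, 2 and 4. In shCtrl it was 2.17, 0.534 and 2.06. Slc1a2 was thus the higher of the pair in shCtrl replicates 1 and 4 and the lower in the other 4 libraries, shCtrl replicate 2 included. With the longest transcript as the length in place of merged exons, the shCtrl mean of Slc1a3 was above that of Slc1a2.

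**Figure D3:**
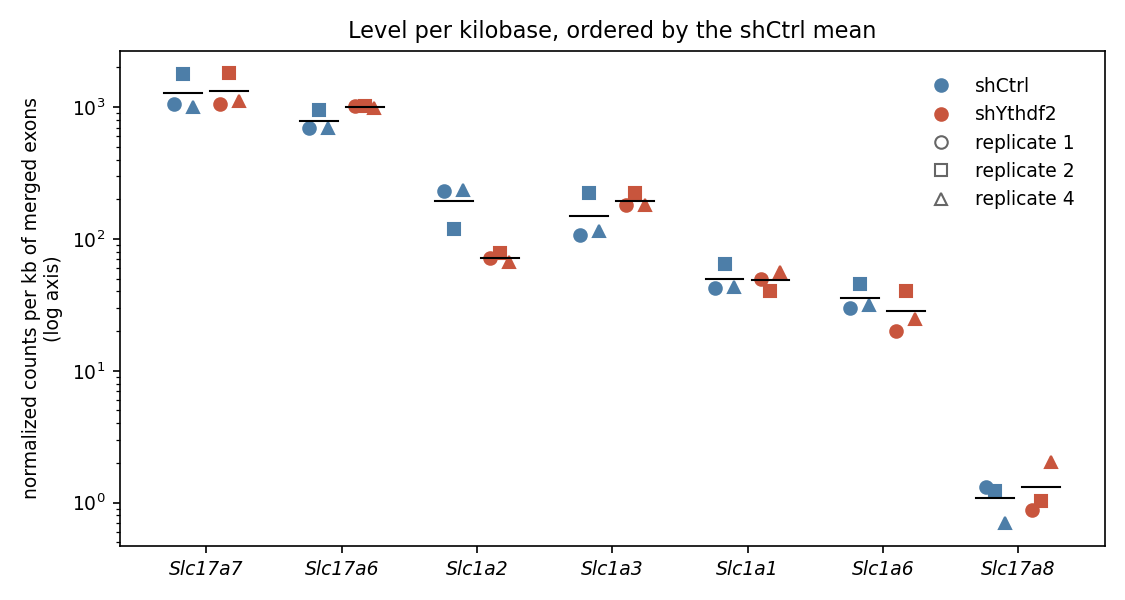
Normalized counts per kilobase of merged exons (log axis) of the 7 genes, in the order of the shCtrl means; symbols are libraries and lines are means of 3 libraries. The vesicular genes Slc17a7 and Slc17a6 are highest, Slc17a8 is lowest at 1.08 in shCtrl, and Slc1a2 and Slc1a3 change places between the groups.

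Compared with Slc1a2 alone, the plasma membrane class as a whole differed less. The summed level of its 4 genes was 322, 382 and 330 normalized counts per kilobase in shYthdf2. In shCtrl it was 409, 454 and 423. These sums and the shares that follow are for merged exons and depend on the length used. With the longest transcript the shCtrl means per kilobase were 286 for Slc1a3 and 221 for Slc1a2. Since the contrast chose the genes, nothing is read from the difference of the sums. Slc1a2 made up 22.1%, 20.4% and 20.3% of this sum after KD and 56.4%, 26.4% and 55.4% in shCtrl. Slc1a3 made up 56.1%, 58.5% and 55.2% after KD and 26.0%, 49.4% and 26.9% in shCtrl. In composition, shCtrl replicate 2 was therefore nearer to the KD libraries than to the other shCtrl libraries.

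In the vesicular class Slc17a7 made up 50.9%, 64.1% and 52.6% of the summed level per kilobase after KD. In shCtrl it made up 60.3%, 65.2% and 58.8%. Slc17a6 made up nearly all of the rest. The ratio of Slc17a7 to Slc17a6 per kilobase was 1.04, 1.78 and 1.11 in shYthdf2 and 1.52, 1.87 and 1.43 in shCtrl. It was highest in replicate 2 of each group, and below every shCtrl library in replicates 1 and 4 of shYthdf2.

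Over the 6 libraries, log2 normalized counts of Slc1a2 had a Pearson r of -0.97 with those of Slc17a6 and -0.82 with those of Slc1a3, and Slc1a3 had an r of 0.92 with Slc17a6. These values describe 6 libraries that share the group difference and the step to replicate 2. Among 12561 genes with a symbol and a mean of at least 50 normalized counts, the 5 most like Slc1a2 were Btbd9, Ifrd1, Bbs7, Prkar2a and Fam168b, with r of 0.999 to 0.997. Ifrd1, a transcriptional co-regulator, had 553, 548 and 501 normalized counts in shYthdf2 and 1287, 801 and 1338 in shCtrl. Its shCtrl replicate 2 thus lay between the KD libraries and the other shCtrl libraries, as that of Slc1a2 did.

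The 5 genes most like Slc1a3 were Olfm2, Btbd17, St3gal5, Sv2a and Fxyd6, with r of 0.999 to 0.998. Sv2a, a protein of synaptic vesicles, had 8173, 9486 and 8299 normalized counts in shYthdf2. In shCtrl it had 5227, 10024 and 5385, again with replicate 2 as the highest library.

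Because GLT-1 and GLAST are glial proteins and the cultures are labelled as GCs, markers of other cells were read beside them. The GC markers were abundant, with a sum of 173598 to 180386 normalized counts in shYthdf2 and a somewhat higher 182515 to 192030 in shCtrl. Zic1, Fat2, Neurod1 and Rbfox3 were at high counts in every library. The list is of the GC type and the sum does not show how mature the cells were. Of the 13 GC markers 3 passed an unadjusted p-value of 0.05 in edgeR, Neurod1 and Cbln1 lower and Chn2 higher after KD. This is 23.1%, where 20.1% of all genes tested passed, with 9.50% higher and 10.6% lower. The summed astrocyte and Bergmann glia markers were 19170, 16861 and 18943 normalized counts in shYthdf2 replicates 1, 2 and 4. In shCtrl they were 11609, 18587 and 11735. Of 19 such markers 16 were tested, 13 were higher after KD and 3 lower, and 2 (12.5%, below the 20.1% of all genes) passed that p, both higher, namely Aqp4 and Acsbg1. None was at 0 throughout, and Gjb6, Ntsr2 and Cldn10 were too low to be tested. Gfap, the intermediate filament of astrocytes, had 4574, 3939 and 4529 normalized counts in shYthdf2 and 2467, 5663 and 2387 in shCtrl.

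In shCtrl, Slc1a3 and the summed glial markers were both high in replicate 2 and low in replicates 1 and 4. Slc1a2 ran the other way there. In shYthdf2 the marker sum was lowest in replicate 2, while Slc1a3 and Slc1a2 were highest in it. Single markers of the list could differ from the sum, as Slc4a4 did, with 3977, 2556 and 4138 normalized counts in shCtrl replicates 1, 2 and 4. The pattern of Slc1a3 was also not particular to glial genes, since Sv2a was among the genes most like it. Slc1a3 amounted to 8.04%, 11.3% and 8.21% of the summed astrocyte and Bergmann glia markers in shYthdf2. In shCtrl it amounted to 7.82%, 10.3% and 8.29%. The ratio was thus alike in same-numbered libraries of both groups. Slc1a2 amounted to 4.87%, 6.06% and 4.63% of the same sum in shYthdf2 and 26.1%, 8.47% and 26.2% in shCtrl. Each KD library was lower than each shCtrl library, and shCtrl replicate 2 was nearer to the KD libraries than to shCtrl replicates 1 and 4. Since the contrast chose Slc1a2, nothing is read from this separation. The part of glial content in the differences of Slc1a2 and Slc1a3 was not tested.

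**Figure D4:**
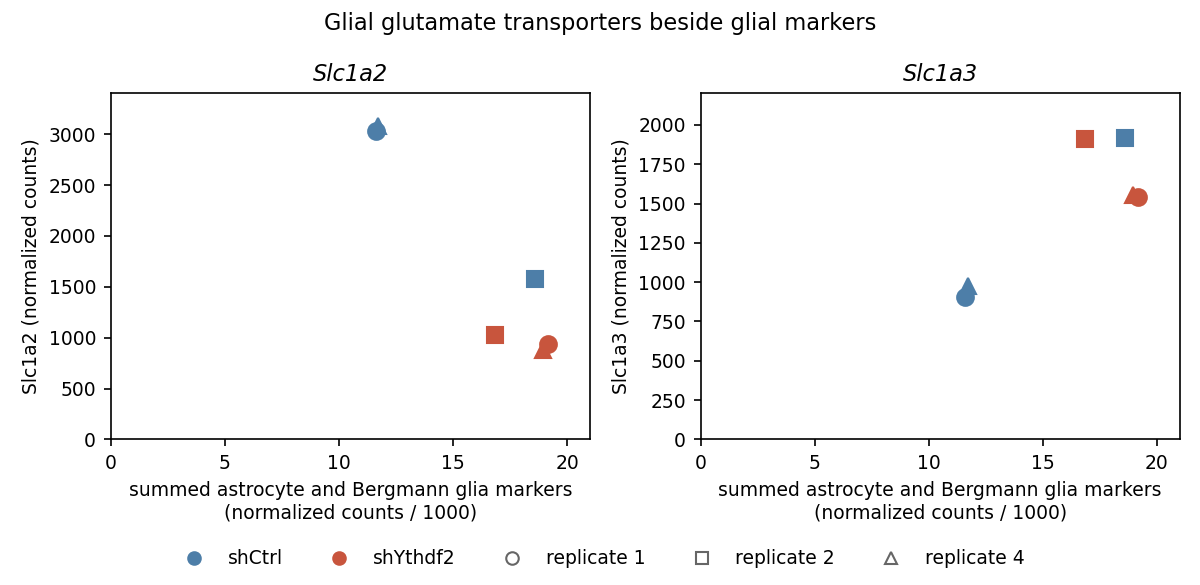
Normalized counts of Slc1a2 (left) and Slc1a3 (right) against the summed astrocyte and Bergmann glia markers (x axis, in normalized counts divided by 1000); each point is 1 library. The shCtrl replicates 1 and 4, with the lowest marker sums of 11609 and 11735, are highest for Slc1a2 and lowest for Slc1a3.

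The sums of 3 further lists of cells that are not neurons overlapped between the groups and differed by replicate. The oligodendrocyte sum was 15892, 20829 and 16355 normalized counts in shYthdf2 replicates 1, 2 and 4 and 6105, 20944 and 5859 in shCtrl. The microglia sum was 1402, 539 and 1544 in shYthdf2 and 355, 1075 and 331 in shCtrl. The vascular and fibroblast sum was 4272, 10806 and 4390 in shYthdf2 and 3165, 8805 and 3118 in shCtrl. In replicates 1 and 4 all 3 sums were higher after KD. In replicate 2 the oligodendrocyte sums were alike, the microglia sum was lower and the vascular and fibroblast sum was higher after KD. By log2 fold change, 10 of 10 tested oligodendrocyte markers, 7 of 8 for microglia and 10 of 10 for vascular cells and fibroblasts were higher. Few of the markers passed an unadjusted p of 0.05, with 1 of 10 for oligodendrocytes, 0 of 8 for microglia and 1 of 10 for vascular cells and fibroblasts, below the 20.1% of all genes. Their part in the differences of the transporters was not tested.

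For the neuronal transporters the comparable markers are those of neurons. The summed Purkinje markers were 4446, 4686 and 4499 normalized counts in shYthdf2 and 3098, 3546 and 3134 in shCtrl. Of these 9 tested markers 4 (44.4%, where 20.1% of all genes passed and 9.50% were higher) passed an unadjusted p of 0.05, all higher. Pcp2, the marker most specific to Purkinje cells, was at 28.7 to 40.7 in shYthdf2 and 30.0 to 44.4 in shCtrl. Slc1a6 amounted to 0.964%, 1.86% and 1.18% of the Purkinje sum in shYthdf2 and 2.09%, 2.76% and 2.17% in shCtrl, without overlap. Nothing is read from this separation, since the contrast chose the genes.

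The summed GABAergic interneuron markers were 13313, 15931 and 13274 normalized counts in shYthdf2 and 9292, 11855 and 9042 in shCtrl. Of these 9 tested markers 3 (33.3%, where 20.1% of all genes passed and 9.50% were higher) passed an unadjusted p of 0.05, all higher. One of them, the transcription factor gene Tfap2b, lay at the adjusted threshold (log2 fold change 0.83, SE 0.12, adjusted p = 0.0496 in edgeR). Its adjusted p was 0.0532 with limma-voom and 0.241 to 0.286 without replicate 1 or 4 of either group. The unipolar brush cell sum was 10907 to 11684 in shYthdf2 and 10324 to 12170 in shCtrl, and 1 of 5 markers (20.0%) passed an unadjusted p, Eomes, lower after KD. The progenitor sum was 8378, 8849 and 8563 in shYthdf2 and 12774, 10839 and 12097 in shCtrl, although 7 of 9 tested markers were higher after KD. It was led by Barhl1, the 1 marker (11.1%) past that p, which was lower.

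Of the GC markers, Gabra6, the GABA receptor subunit of mature GCs, had 518, 1357 and 552 normalized counts in shYthdf2 and 432, 1209 and 408 in shCtrl. Like Slc17a7, it was highest in replicate 2 of both groups. Cbln1, Cbln3, Chn2, Etv1, Grin2c and Calb2 were also highest there, while Pax6 and Fat2 were lowest there. In the rest of the list replicate 2 was neither highest in both groups nor lowest in both. Slc17a7 amounted to 3.20%, 5.61% and 3.30% of the summed GC markers in shYthdf2 and 3.06%, 4.98% and 2.95% in shCtrl. Slc17a6 amounted to 3.09%, 3.15% and 2.97% in shYthdf2 and 2.02%, 2.66% and 2.07% in shCtrl. Every KD library was above every shCtrl library, and nothing is read from this, since the contrast chose the genes. The part of these markers in the values of the vesicular genes was not tested.

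The genes that make, break down and move glutamate and glutamine around the transporters were then read, from 3 lists of 35 genes in all. Of these 28 were tested, and 7 passed an unadjusted p-value of 0.05 in edgeR, 1 higher and 6 lower after KD. This is 25.0% of the genes, where 20.1% of all genes tested passed, with 9.50% higher and 10.6% lower. When the replicate number was fitted as a block, 12 genes of the lists and 5446 genes in all passed. None of the 28 passed an adjusted p of 0.05 in edgeR, which 0.604% of all genes did. This was 1 gene with the replicate block, Slc25a22 (adjusted p = 0.0450 in edgeR), 4 genes with DESeq2 and 10 with a batch term for replicate 2. The median log2 fold change of the lists was -0.0036.

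In the list for synthesis, breakdown and transport of glutamate and glutamine, 5 of 15 genes passed. Slc38a3, the transporter by which astrocytes release glutamine, had 142, 164 and 169 normalized counts in shYthdf2 and 74.5, 102 and 98.9 in shCtrl. It was higher after KD in all 3 replicate numbers (log2 fold change 0.79, SE 0.20, unadjusted p = 0.00479 in edgeR). Gls2, a glutaminase that forms glutamate from glutamine, had 204, 166 and 202 in shYthdf2 and 335, 264 and 366 in shCtrl. It was lower in all 3 numbers (-0.76, SE 0.18, unadjusted p = 0.00317, adjusted p = 0.0883 in edgeR).

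Slc25a22, a mitochondrial glutamate carrier, had 3369, 2879 and 3478 normalized counts in shYthdf2 and 4854, 4242 and 4772 in shCtrl, a log2 fold change of -0.51 (SE 0.11). Slc3a2, the heavy chain shared by amino acid exchangers such as the cystine and glutamate exchanger, had a log2 fold change of -0.42 (SE 0.11), and Glud1, glutamate dehydrogenase, one of -0.28 (SE 0.10). Both were lower in all 3 numbers, with the smallest difference in replicate 2, at -0.15 and -0.11. Glul, the astrocyte enzyme that forms glutamine, had a log2 fold change of -0.25 (SE 0.11) and did not pass.

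Of the other Slc1 and Slc17 genes, 4 of 9 were tested. Slc1a4, which encodes a carrier of neutral amino acids and not of glutamate, was lower after KD, with 701, 707 and 729 normalized counts in shYthdf2 and 954, 803 and 925 in shCtrl (log2 fold change -0.33, SE 0.11, unadjusted p = 0.0172 in edgeR). Slc1a5, Slc17a5 and Slc17a9 did not pass, and Slc17a2 and Slc17a3 had 0 counts in all 6 libraries.

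Among the 9 partners of the transporters, all tested, 1 passed. Arhgef11, an exchange factor known to bind EAAT4, had 1991, 1798 and 1944 normalized counts in shYthdf2 and 2776, 2162 and 2693 in shCtrl (log2 fold change -0.41, SE 0.12, unadjusted p = 0.0098 in edgeR). The astrocyte potassium channel gene Kcnj10, which did not pass, had 283, 334 and 338 normalized counts in shYthdf2 and 123, 313 and 123 in shCtrl. As for Slc1a3, shCtrl replicates 1 and 4 were low and shCtrl replicate 2 was near the level of the KD libraries.

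**Figure D5:**
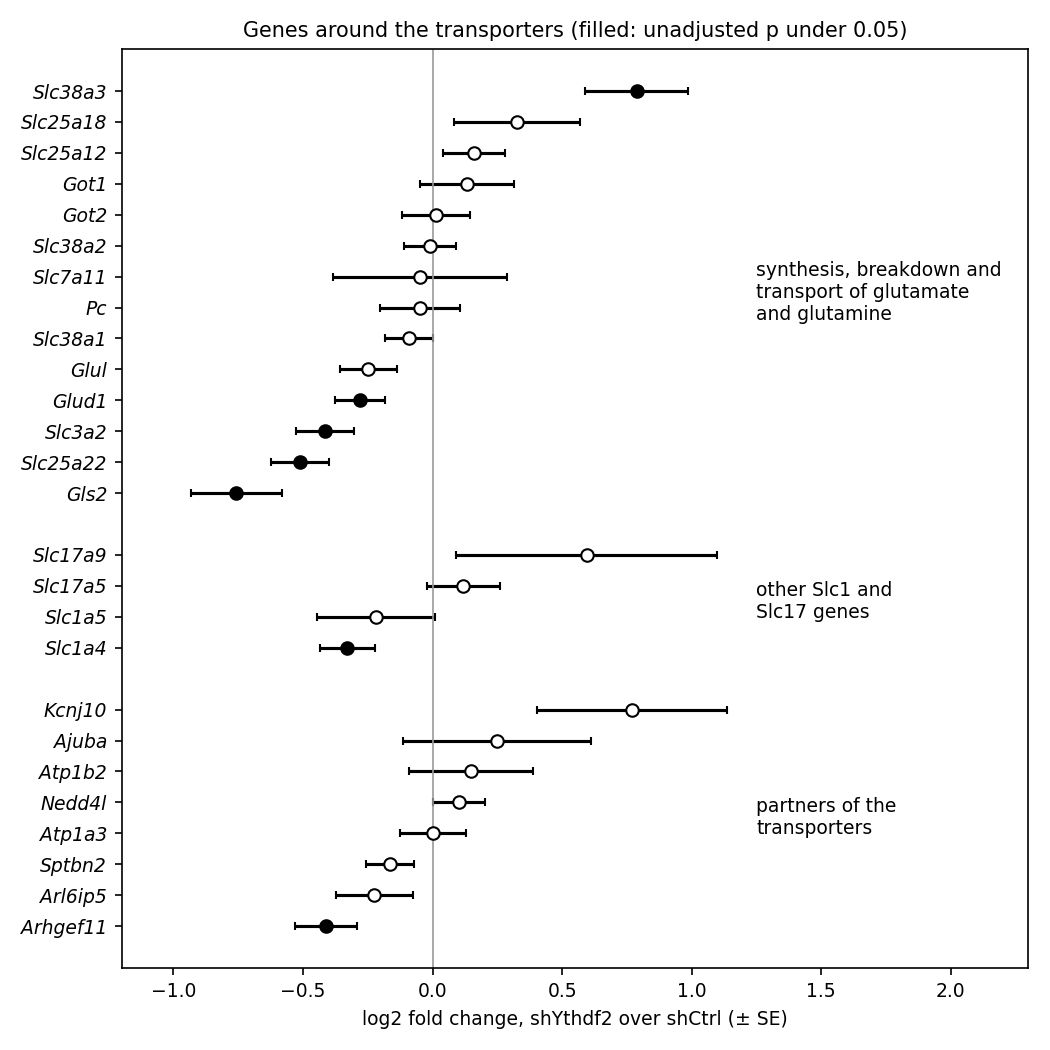
Log2 fold change, shYthdf2 over shCtrl, ± SE (x axis) of tested genes of the 3 lists around the transporters, without those not reported here; filled points passed an unadjusted p of 0.05. The 7 filled points are Slc38a3 on the higher side, at 0.79, and 6 on the lower side, from Gls2 at -0.76 to Glud1 at -0.28.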

How the data were processed

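RNA-seq counts of 6 libraries were used. By the methods of the study, the authors aligned reads by HISAT and TopHat2 (GRCm38) and obtained gene counts by HTSeq, while the submitters' processing notes name Bowtie 0.12.2 and mm9. The deposited values are whole-number counts per gene, not normalized. GENCODE vM21 paired 52489 of 53421 IDs with symbols. The count test was that of edgeR 4.0.16 (R 4.3.3; filterByExpr with a minimum count of 10 and minimum total of 15, TMM, quasi-likelihood test, Benjamini-Hochberg adjustment over 17214 genes). Normalized counts are TMM counts at a common library size, and 0.5 was added for log2 values of single libraries. Alternatives were RLE size factors, library size alone, DESeq2 1.42.0, limma-voom (limma 3.58.1), other filters, the replicate block, a batch term for replicate 2 and each library left out. Same-numbered libraries deviated together from their group means (correlations 0.250, 0.361 and 0.305 for replicates 1, 2 and 4), a pairing seen in the data and not given by the labels. On simulated counts of this comparison, edgeR found 85% of 200 genes changed by 1.5 on the log2 scale among 16847, and 3.95% of its 177 calls were false. With DESeq2, 19.5% of 231 calls were false. The changed genes had a mean of at least 50 normalized counts. The simulated libraries had neither the step to replicate 2 nor the pairing, so these shares need not hold for the real counts or for smaller differences. The members and lists were chosen with earlier results of these data known, and the shares of marker sums were added after the values were seen. Genes named were the 7 members, Ythdf2, genes of the 3 glutamate lists with an unadjusted p under 0.05, genes of any list with an adjusted p under 0.05, marker lists with defining genes, and the 5 genes most like Slc1a2 and Slc1a3. Glul, Kcnj10 and single cell markers, Ifrd1 and Sv2a among the most alike, were picked for mention after their values were seen. Values of some single genes of the lists are not reported here.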

Additional observations from a re-analysis of the deposited data

How the results depend on the processing

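The log2 fold changes of the 6 members tested moved by less than 1 SD of the libraries of a group under all 14 alternatives. They kept their sign for Slc1a2 (-1.69 to -1.29), Slc1a3 (0.20 to 0.83), Slc17a6 (0.29 to 0.54) and Slc1a6 (-0.68 to -0.12), and crossed 0 for Slc1a1 (-0.15 to 0.20) and Slc17a7 (-0.24 to 0.37), whose values are near 0. In the order of levels in shCtrl, 4 neighbouring pairs were separate, with 4 to 6 as single shCtrl libraries were left out and 4 with the longest transcript, which put Slc1a3 above Slc1a2. The number of genes past the adjusted threshold, 104, was 1321 with DESeq2, 24 with limma-voom, 639 without the filter, 232 with the replicate block and 3799 with the batch term. It ranged from 0 to 3239 as each library was left out, with 829 without shYthdf2 replicate 2, 3239 without shCtrl replicate 2 and 0 without each of the others. With library size alone it split into 61 higher and 47 lower, in place of 42 and 62, and the median of all genes moved from 0.01 to 0.04. The number past the unadjusted threshold, 3461, was 5446 with the replicate block, 6807 with the batch term and 1986 to 6034 with a library left out, highest without shCtrl replicate 2. For the lists around the transporters the 7 genes became 12 with the replicate block, 14 with the batch term and 5 to 12 with a library left out, with 12 without replicate 2 of either group. At the adjusted threshold, in alternatives chosen after seeing the data, the 0 genes of these lists became 4 with DESeq2, 1 without the filter, 1 with the replicate block, 10 with the batch term and 0 to 10 with a library left out, with 10 without shCtrl replicate 2 and 1 without shYthdf2 replicate 2. Of 112 alternatives of the 8 genes named from the lists, 100 kept direction and side of the threshold and 12 lost the call. These were 4 of Glud1 and 3 of Slc1a4, each with a library left out, and 5 of Tfap2b at the adjusted threshold, with limma-voom (0.0532) and without replicate 1 or 4 of either group (0.241 to 0.286). The causes were not tested. Depth limits Slc17a8 and, less, Slc1a6.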
